A study of Mus musculus with 6 samples.

Results

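Myosin light chains and myosin binding proteins are partners of the myosin motor in the thick filament of muscle. The set described here holds 8 genes, of 18193 with a probe set that names 1 gene: Myl1, Mylpf, Myl4, Myl3, Myl2, Mybpc1, Mybpc2 and Mybph. The measurements are all probe sets whose only gene symbol in the platform annotation is one of these names, 13 of 34945. The genes were listed with earlier results of the same arrays known, and no measured value enters the rule.

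Each myosin head carries an essential and a regulatory light chain on its lever arm. Fast, slow and embryonic fibres use different light chain genes, some of which are shared with the heart, and phosphorylation of the regulatory chain tunes force. Myosin binding proteins sit in stripes along the thick filament and tune how the heads meet actin. Embryonic tongue muscle starts with a mixture of embryonic, slow and fast forms, and its fibres come from mesoderm.

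The material was total RNA of C57BL/6J mouse tongues taken at embryonic day 14.5, and 6 Affymetrix arrays read it. The 3 mutants were Tgfbr2 fl/fl with Wnt1-Cre, so that the gene of the type II TGF-beta receptor is deleted in neural crest cells and their descendants, and the 3 controls were Tgfbr2 fl/fl without Cre. Both groups carry the floxed alleles, although the titles call the controls wildtype, and muscle fibres, which do not come from neural crest, are not a target of this Cre. The study asked how genes of the developing tongue depend on this receptor. The labels use the words tongue and tongue mesenchyme for the tissue, do not give sex, and do not say whether arrays come from separate litters, so that p-values cover only how far these samples spread, which may be technical.

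The unit is the log2 expression value made with RMA, a method that normalizes and summarises the probes of a probe set. A gene is represented by its brightest probe set, and 13645 genes above a minimum level of 5.17 were tested with limma, a linear model across all genes, with Benjamini-Hochberg adjusted p-values and a threshold of 0.05. Mutant array 1 stood apart: it correlated with the other 5 arrays at 0.966 to 0.978, against 0.984 to 0.998 among those 5. Tgfbr2 itself differed by -0.18 (standard error 0.18, limma adjusted p = 0.642), and by 0.014 without mutant array 1. No source used here gives the position of its probes relative to the deleted part, so this checks no label. The skeletal muscle markers Des, Ckm, Acta1, Chrna1 and Myog had control means of 10.03 to 13.35, where array medians were 5.92 to 5.98. Of the heart markers, Nppa, Tnni3, Myl7 and Ryr2 had means in both groups of 3.61 to 5.08, below the minimum level, while Nppb (5.78 in controls) and Myh6 (6.65 in controls) lay above it.

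The regions before the start sites are shown for 6 members because 5 of them hold CAGCTG, a form of the E-box, the motif of myogenic bHLH factors such as Myod1, and Myl3, whose values ran the other way, holds a CArG box, the motif of serum response factor. Each is the 250 bases upstream of a start from RefSeq's table of the build GRCm38.p6, written 5′ to 3′ on the gene's strand. Capitals mark matches to CANNTG (the E-box) or to the CArG box, on either strand. The windows are chr1:66945057-66945306 on the minus strand (Myl1), chr7:127211358-127211607 on the plus strand (Mylpf), chr5:122092939-122093188 on the plus strand (Myl2, the second of 2 listed starts), chr1:134193198-134193447 on the plus strand (Mybph), chr10:88605153-88605402 on the minus strand (Mybpc1) and chr9:110763428-110763677 on the plus strand (Myl3).
Myl1: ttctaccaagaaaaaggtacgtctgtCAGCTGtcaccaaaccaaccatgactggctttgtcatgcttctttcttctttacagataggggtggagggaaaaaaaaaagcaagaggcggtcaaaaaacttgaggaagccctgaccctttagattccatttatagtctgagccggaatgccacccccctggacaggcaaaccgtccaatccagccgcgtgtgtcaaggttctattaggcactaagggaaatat
Mylpf: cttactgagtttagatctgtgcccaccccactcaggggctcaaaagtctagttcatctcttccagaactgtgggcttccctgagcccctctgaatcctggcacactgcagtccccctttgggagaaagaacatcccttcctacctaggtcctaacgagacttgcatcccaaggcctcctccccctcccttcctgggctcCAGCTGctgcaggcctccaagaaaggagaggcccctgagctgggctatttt
Myl2: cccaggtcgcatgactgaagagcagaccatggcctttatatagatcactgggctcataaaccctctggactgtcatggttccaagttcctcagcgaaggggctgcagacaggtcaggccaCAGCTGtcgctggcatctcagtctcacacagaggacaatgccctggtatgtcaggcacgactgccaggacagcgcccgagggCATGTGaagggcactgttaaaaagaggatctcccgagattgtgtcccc
Mybph: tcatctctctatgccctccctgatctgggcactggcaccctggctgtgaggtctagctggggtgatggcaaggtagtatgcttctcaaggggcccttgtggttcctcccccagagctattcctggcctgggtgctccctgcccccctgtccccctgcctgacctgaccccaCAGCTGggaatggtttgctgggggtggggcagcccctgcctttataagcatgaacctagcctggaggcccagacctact
Mybpc1: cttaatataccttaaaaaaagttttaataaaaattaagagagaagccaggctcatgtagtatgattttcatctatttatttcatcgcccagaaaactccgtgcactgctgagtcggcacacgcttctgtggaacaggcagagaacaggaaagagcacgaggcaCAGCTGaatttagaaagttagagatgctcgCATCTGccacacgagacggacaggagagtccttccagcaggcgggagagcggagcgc
Myl3: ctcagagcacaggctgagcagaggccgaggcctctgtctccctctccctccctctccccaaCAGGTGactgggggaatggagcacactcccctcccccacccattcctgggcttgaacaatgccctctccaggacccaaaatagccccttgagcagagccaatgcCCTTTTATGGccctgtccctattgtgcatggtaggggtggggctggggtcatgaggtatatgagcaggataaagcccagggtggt

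All 8 members matched the promoter table, with 9 starts. The E-box form CAGCTG, which is a case of CANNTG, was found for 5 of the 8 genes (Myl1, Mylpf, Myl2, Mybph and Mybpc1), and 13.0% of all 32851 windows of this length hold it. It begins 224 bases before the start in Myl1, 51 in Mylpf, 130 in Myl2, 79 in Mybph and 87 in Mybpc1. Any CANNTG was found for 7 of the 8 genes and in 66.2% of all windows. The CArG box was found for 1 of the 8 genes, Myl3, where it begins 85 bases before the start, and in 1.47% of all windows. The other motifs searched on both strands were TATAAA (3 of the 8 genes, 12.4% of all windows), CATTCC, the M-CAT motif (4 of the 8, 12.6%), TCAGGTT, the MEF3 motif (0 of the 8, 3.49%) and the MEF2 site (0 of the 8, 2.92%). The Myl4 window held none of the 7 motifs. Members were counted by gene, where a gene with more than 1 start counts if any start matches, while the background shares count windows. For Myl2 CAGCTG and TATAAA were found before the second listed start only. These matches describe letters in 1 short window per start. They name no bound site, and Mybpc1, which has the same CAGCTG letters as Myl1, had overlapping groups (values given below).

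In the mutants 5 of the 8 members lay lower in every array than in every control, 1 lay higher in every array, and 2 overlapped. The lower ones were Myl1, Mylpf, Myl4, Myl2 and Mybph, the higher one was Myl3, and Mybpc1 and Mybpc2 overlapped. Among all tested genes 25.1% had groups that do not overlap, 11.5% lower and 13.6% higher. A negative difference was found for 6 of the 8, and for 46.6% of tested genes. Among the 6 is Mybpc2, which was tested only through its control mean (5.25). Its mutant mean (5.14) lay below the minimum level of 5.17. None of the 8 members passed the limma threshold, where 2.14% of tested genes did (0.821% lower and 1.32% higher). An unadjusted p under 0.05 was found for 6 of the 8 (5 lower), as for 16.9% of all tested genes (7.46% lower). With the replicate number of the titles as a block 1 of the 8 passed, Myl1, where 3.59% of tested genes did (1.52% lower). With array quality weights, which lower the influence of deviating arrays, 4 passed (Myl1, Mylpf, Myl2 and Mybph), all lower, where 2.93% of tested genes passed as lower. The median difference of the 8 members was -0.28 on the log2 scale, against 0.016 over all tested genes, and it was -0.28 without mutant array 1. Whether lower values reflect fewer muscle cells or less RNA per cell cannot be told apart in whole tissue.

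**Figure D1:**
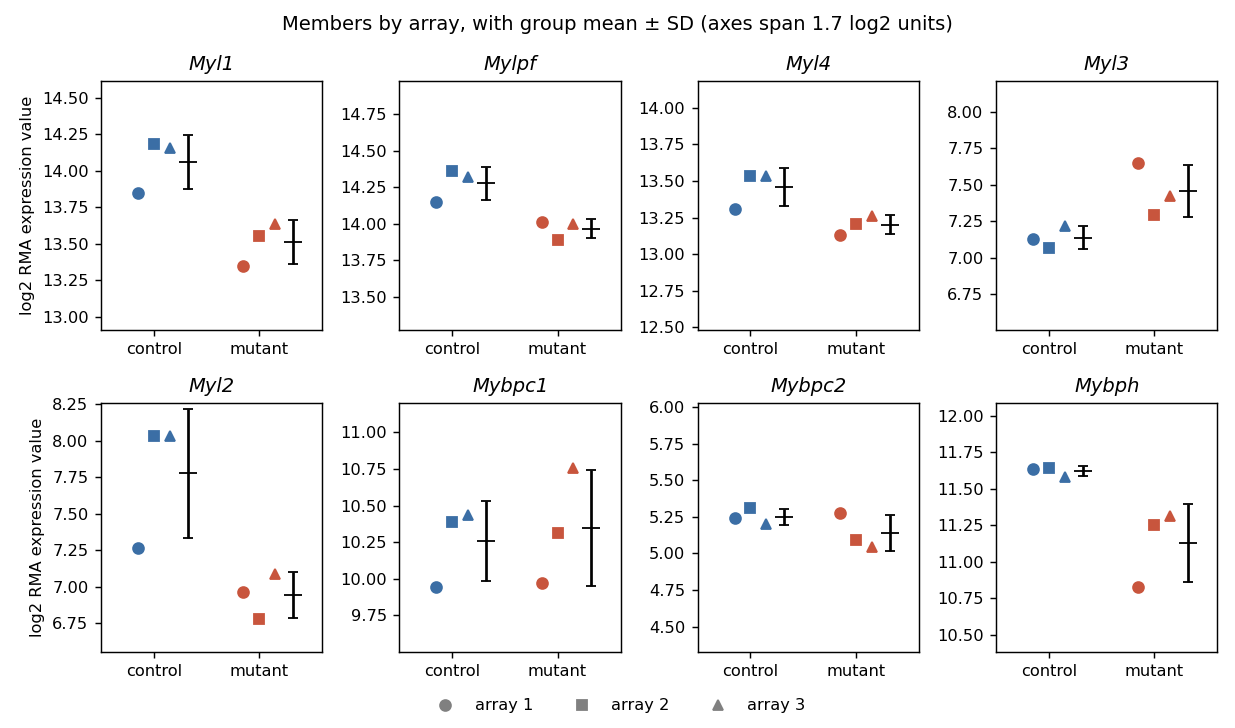
Log2 RMA expression value of each member (y axis) in the 3 control and 3 mutant arrays (x axis), with symbols for the array number in the titles and black bars for the group mean ± SD; each panel spans the same log2 range but is centred on its own gene. The mutant points lie below all control points for Myl1, Mylpf, Myl4, Myl2 and Mybph, and above them for Myl3.

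Among the essential light chains, Myl1 encodes the fast-fibre chain. Its values were 13.85, 14.18 and 14.15 in control arrays 1, 2 and 3 and 13.35, 13.56 and 13.64 in mutant arrays 1, 2 and 3. All 3 mutants lay under the lowest control, and control array 1 was the one nearest to them. The difference was -0.55 (standard error 0.13, limma adjusted p = 0.0906), which is 1.46-fold, and it passed with the replicate block (limma adjusted p = 0.0386). Without control array 2 or 3 the adjusted p of Myl1 was 0.365 or 0.359. Myl1 makes a long and a short transcript from different starts, and its single probe set gives 1 value for the gene.

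Myl4 encodes the essential chain of embryonic skeletal muscle and of the atrium. Its brighter probe set read 13.31, 13.53 and 13.53 in the controls and 13.13, 13.21 and 13.26 in the mutants. The groups were separate but close, with a gap smaller than the distance of control array 1 from the other controls. The Myl4 difference was -0.26 (standard error 0.099, limma adjusted p = 0.252). The second probe set of Myl4 gave -0.15, with overlapping groups.

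Myl3, the essential chain of slow fibres and of the ventricle, ran against the other light chains. Its brightest probe set gave 7.13, 7.07 and 7.22 in the controls and 7.65, 7.29 and 7.42 in the mutants, the highest in mutant array 1. Mutants lay 0.32 higher (standard error 0.11, limma adjusted p = 0.224), and 0.22 higher without mutant array 1, so Myl3 did not pass either way. The 2 further probe sets of Myl3 gave 0.25 and 0.40, both with overlapping groups; the suffixes of their names (x and s) mark probes that can also read similar transcripts.

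Of the regulatory light chains, Mylpf encodes the one of fast skeletal fibres. It read 14.15, 14.36 and 14.32 in the controls and 14.01, 13.89 and 13.99 in the mutants, with mutant array 2 the lowest. The difference was -0.31 (standard error 0.096, limma adjusted p = 0.165), or -0.33 without mutant array 1. These values lie close to the highest value on any array, 14.93. The part of this in the size of the Mylpf difference was not tested.

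Myl2, the regulatory chain of slow fibres and of the ventricle, had the largest difference of the 8 members. Controls read 7.27, 8.03 and 8.03, and mutants read 6.97, 6.78 and 7.09. Control array 1 stood between the other controls and the mutants, only slightly above the highest mutant. The Myl2 difference was -0.83 (standard error 0.21, limma adjusted p = 0.113), which is 1.78-fold. Without control array 1 it was -1.09 and passed (limma adjusted p = 0.0260), and without control array 2 or 3 it was -0.71 or -0.70 (limma adjusted p = 0.399 and 0.391). Without mutant array 1 it was -0.84.

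**Figure D2:**
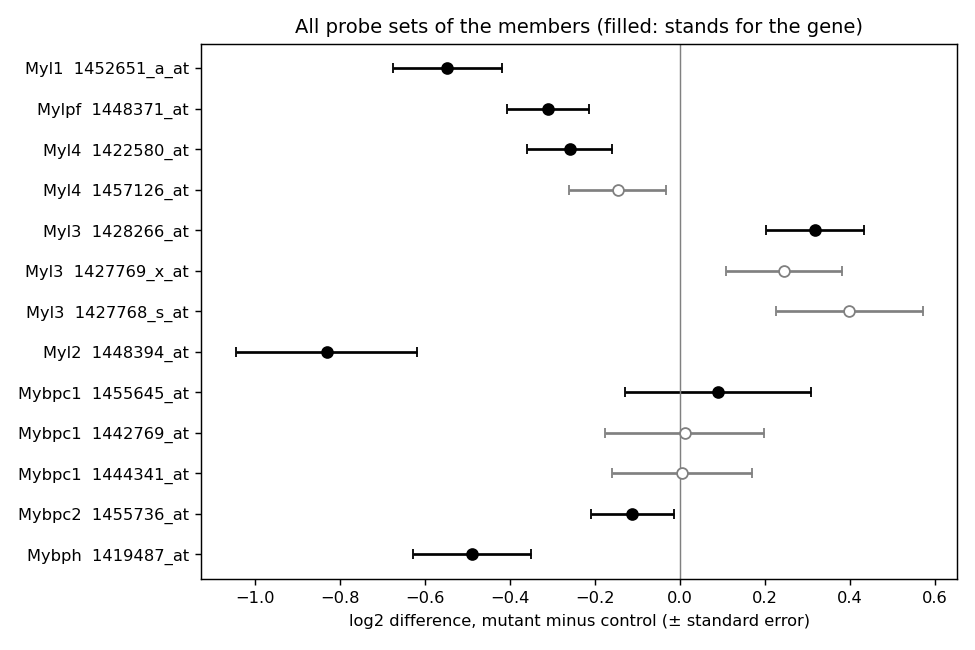
Log2 difference, mutant minus control (x axis), with its standard error from the fit on all probe sets, for the 13 probe sets of the 8 members (y axis); filled points are the brightest probe set of a gene. The 3 probe sets of Myl3 all lie to the right of 0, both of Myl4 to the left, and those of Mybpc1 around 0.

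The binding proteins divided. Mybph, encoding myosin binding protein H, a shorter relative of the C proteins, read 11.64, 11.64 and 11.58 in the controls and 10.83, 11.25 and 11.32 in the mutants. Its controls were tight (SD 0.035) and its mutants spread (SD 0.27, n = 3 per group), with mutant array 1 far below the other mutants. The Mybph difference was -0.49 (standard error 0.14, limma adjusted p = 0.138), or -0.34 without mutant array 1 (limma adjusted p = 0.0530). For comparison, the median SD over tested genes was 0.084 in the controls and 0.17 in the mutants.

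Mybpc1, encoding the slow-type myosin binding protein C, showed no separation of the groups. Its brightest probe set read 9.94, 10.39 and 10.44 in the controls and 9.97, 10.31 and 10.76 in the mutants. In both groups array 1 was the lowest. The Mybpc1 difference was 0.090 (standard error 0.22, limma adjusted p = 0.867), with a 95% confidence interval from -0.42 to 0.60 that holds the differences of Mylpf, Myl4 and Myl3 but not those of Myl1, Myl2 or Mybph. The intervals of Myl1 (-0.85 to -0.25), Myl2 (-1.33 to -0.33) and Mybph (-0.81 to -0.17) overlap that of Mybpc1. Mybpc1 was not tested against these 3 genes. Its sign turned without control array 1 (-0.067) and without mutant array 3 (-0.12). The 2 other probe sets of Mybpc1 gave 0.011 and 0.0045.

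Mybpc2, the fast-type binding protein C, was read near the minimum level for testing. Its values were 5.24, 5.31 and 5.20 in the controls and 5.28, 5.09 and 5.04 in the mutants, with mutant array 1 inside the range of the controls. The difference of -0.11 (standard error 0.096, 95% confidence interval -0.34 to 0.11, limma adjusted p = 0.590) therefore concerns a dim signal.

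**Figure D3:**
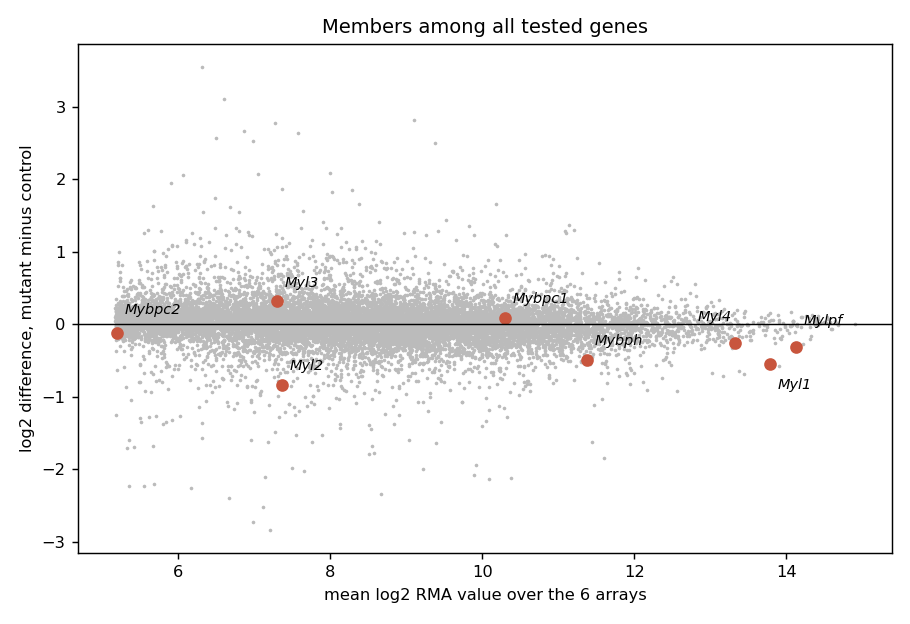
Log2 difference, mutant minus control (y axis), against the mean log2 RMA value over the 6 arrays (x axis) for the 13645 tested genes (grey) and the 8 members (red). Myl1, Mylpf and Myl4 lie among the genes of the highest values, and Mybpc2 lies at the lower edge of the tested range.

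Related members were also set against each other within each array, as the difference of their log2 values relative to its mean in the controls. Such a ratio shows unequal change and not which of the pair moved. Of 6 pairs, 5 separated all mutants from all controls; each of these had an exact permutation p = 0.10 (2-sided), the smallest that 3 against 3 arrays allow, and p = 0.12 after Benjamini-Hochberg adjustment over the 6 pairs, so none could pass 0.05. Myl3 relative to Myl1, the slow against the fast essential chain, shifted most, with -0.19 to 0.21 in the controls and 1.23, 0.66 and 0.71 in mutant arrays 1, 2 and 3, a change of 0.86 (0.68 without mutant array 1). Myl2 relative to Mylpf, the slow against the fast regulatory chain, went the other way, with -0.38 to 0.21 in the controls and -0.54, -0.61 and -0.41 in the mutants, a change of -0.52. Within the arrays, Myl3 was thus higher relative to its fast counterpart in the mutants, and Myl2 lower. The separation of Myl3 relative to Myl1 was fixed beforehand, because Myl3 lay higher and Myl1 lower in every mutant array. Its permutation test therefore adds nothing to the values of the 2 genes. The 6 pairs also share members, among them Myl1 and Mylpf. How often pairs of other genes separate was not tested, so the count of 5 is no further evidence of unequal change. The Myl3 with Myl1 and Myl2 with Mylpf pairs join unlike levels. Control means were 7.14 for Myl3 and 7.78 for Myl2, against 14.06 for Myl1 and 14.28 for Mylpf, near the highest array values. The part of this in the shifts was not tested. Control array 1 at -0.38 lay close to the mutants in the Myl2 and Mylpf pair.

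Among the other pairs, Myl4 relative to Myl1, the embryonic against the fast essential chain, changed by 0.29, with 0.39, 0.25 and 0.22 in the mutants. Mylpf relative to Myl1 changed by 0.24, and by 0.13 without mutant array 1. Mybph relative to Mybpc2 changed by -0.38, and by -0.16 without mutant array 1. Mybpc1 relative to Mybpc2 changed by 0.20 with overlapping groups (exact permutation p = 0.70) and by -0.049 without mutant array 3. Both pairs with Mybpc2 join unlike levels too. Its control mean was 5.25, near the minimum level for testing, against 11.62 for Mybph and 10.26 for Mybpc1. The part of this in these changes was not tested.

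The arrays differed in more than the members. Relative to the control mean, the median of the 8 members was -0.14, 0.079 and 0.077 in control arrays 1, 2 and 3 and -0.31, -0.31 and -0.24 in mutant arrays 1, 2 and 3. The skeletal muscle markers (5 of 5 tested, 5 of 5 negative, against 46.6% of tested genes) had a median difference of -0.28, with none called. With the replicate block Acta1 (limma adjusted p = 0.0262) and Des (0.0438) passed, both lower, where 1.52% of tested genes passed as lower. Their median was -0.57 without control array 1 and -0.10 without mutant array 1. By array, the list medians relative to the control mean were -0.35, 0.14 and 0.18 in the controls and -0.70, -0.35 and -0.065 in the mutants. Their mean level ranged from 11.01 to 11.54 in the controls and from 10.73 to 11.21 in the mutants. Control array 1 was the lowest control both for the muscle markers and for Myl1, Myl2, Mylpf and Myl4.

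Markers of other cell types differed as well. Among all tested genes 46.6% had a negative difference, 0.821% were called lower and 1.32% higher. With the block 3.59% were called in either direction. All 6 epithelial markers, among them Krt14 and Epcam, had positive differences, with none called, 2 called with the replicate block (Krt14, limma adjusted p = 0.0315, and Epcam, 0.0457), 2 without mutant array 1 and 4 without mutant array 3. They had a list median of 0.59 and a mean level of 10.86 to 10.99 in the controls and 11.19 to 11.85 in the mutants. Endothelial markers had a median of -0.49, with a mean level of 7.92 to 8.02 in the controls and 6.84 to 7.75 in the mutants, and connective tissue markers had a median of -0.29 with overlapping mean levels (12.03 to 12.23 and 11.55 to 12.20), although Dcn, decorin, was called higher. That list had no higher call without any 1 array other than mutant array 1, with Xist level (high or low) as a covariate or as means of probe sets. The 4 macrophage markers had a median of 0.37, with 7.75 to 8.07 in the controls and 8.30 to 8.44 in the mutants, and C1qa among them was called higher; this list had no call without control array 2 or 3 or mutant array 2. The 4 tested cartilage markers (median -0.085), the 3 of red cells (-0.019) and the 3 of smooth muscle (-0.17) had medians nearer 0, and the 3 of nerve and Schwann cells had a median of 0.34, with Col9a1 of cartilage and Stmn2 of nerve called higher. Both lists had no call without control array 2 or 3 or mutant array 2 or 3, with Xist level as a covariate or as means of probe sets, and the nerve list also had none without control array 1. Without mutant array 1 the nerve list had a median of 0.59 and 3 called higher. The 2 tested heart markers had a median of -0.91, with mean levels of 6.02 to 6.50 in the controls and 5.13 to 5.46 in the mutants; the median over all 6 was -0.15 with no minimum level. Without mutant array 1 the medians were 0.47 for epithelium, -0.19 for endothelium (1 gene called lower) and -0.097 for connective tissue. The part of these differences in the values of the light chains and binding proteins was not tested.

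**Figure D4:**
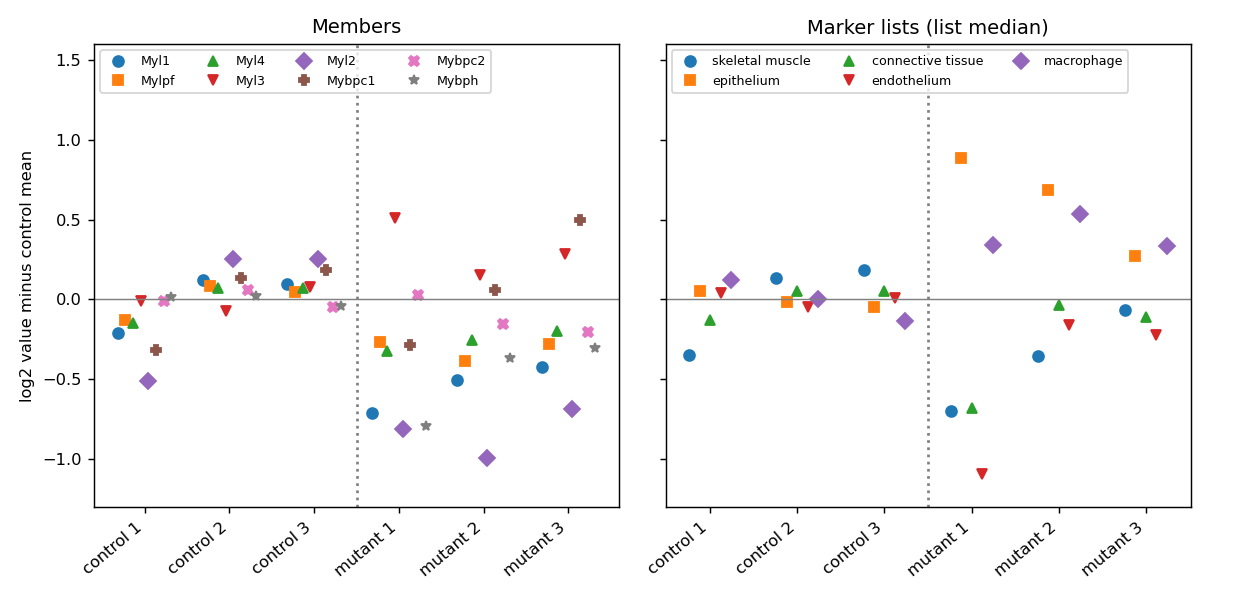
Log2 value minus the control mean (y axis) in each of the 6 arrays (x axis), for the 8 members (left) and as the median of 5 marker lists (right). Control array 1 is lowest of the controls for Myl2 and for the skeletal muscle markers, and the epithelial median is 0.88 in mutant array 1 against 0.27 in mutant array 3.

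Genes of the same machinery were counted from lists put together with earlier results known. Among all tested genes 46.6% had a negative difference and 0.821% passed as lower, or 1.52% with the block. Of 14 tested thick filament partners (19 listed), which are heavy chains, M-band proteins, titin, assembly factors and the binding protein genes Mybpc3 and Mybphl, 12 had a negative difference and 2 passed, both lower. Myh6, encoding the alpha heavy chain of atrial muscle, fell by 1.26 (standard error 0.13, limma adjusted p = 0.00792), and Smyd1, encoding a methyltransferase needed for thick filament assembly, fell by 0.55 (limma adjusted p = 0.0470). Myom1, the M-band protein myomesin, gave -0.97 (limma adjusted p = 0.198, 0.0360 with the block), and -0.57 without mutant array 1. Mybpc3, the cardiac-type binding protein C, gave -0.096 (limma adjusted p = 0.694), and Mybphl lay below the minimum level; both were chosen for mention after their values were seen. The Myh6 call was lost without control array 2 or 3 (limma adjusted p = 0.0568 and 0.0545). No tested gene of this list passed with probe sets averaged or with the stricter 50% filter. Myh6 was not tested in either setting, because its level there fell below the filter. The mutant mean of Myh6 was 5.39, near the minimum level for testing. The Smyd1 call was lost without any array other than mutant array 1 (limma adjusted p = 0.0518 to 0.245). Smyd1 did not pass either when its probe sets were averaged (-0.18, limma adjusted p = 0.271), with Xist level as a covariate (0.126), with trend and robust fitting (0.0519), with the stricter 50% filter (0.0543) or where a fold of at least 1.5 was required. The list median was -0.67, and -0.36 without mutant array 1, against 0.016 for all tested genes; with the block 5 of the 14 passed, all lower.

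The light chains outside the set did not follow 1 direction. Of 4 tested (7 listed), 2 were negative and none passed, with a median of -0.044 that was 0.061 when the mean of all probe sets stood for a gene and 0.0036 with no minimum level. Myl9, the regulatory chain of smooth muscle and non-muscle cells, gave -0.66 (limma adjusted p = 0.0914, 0.0376 with the block). Myl6, the essential chain of non-muscle cells, gave 0.22 (0.351, and 0.14 without mutant array 1), and Myl12a, a non-muscle regulatory chain, gave -0.16 (0.418). The probe set that stands for Myl6 had a control mean of 7.10, against 13.55 for that of Myl12a. Of 8 tested kinases and phosphatase subunits that set light chain phosphorylation (11 listed), 5 were negative and none passed, with a median of -0.12 that was 0.0087 without mutant array 1 and 0.011 with array quality weights. The smallest p-values were those of Ppp1r12b, a myosin phosphatase subunit (-0.58, limma adjusted p = 0.209), Mylk4, a myosin light chain kinase family gene (-0.78, 0.210), and Dapk3, a kinase that phosphorylates regulatory chains (-0.23, 0.428). Without mutant array 1 Ppp1r12b gave -0.36 and Mylk4 gave -0.45. As means of probe sets Ppp1r12b gave -0.14 and Dapk3 gave -0.11, and Dapk3 gave -0.15 without mutant array 3.

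Fast-fibre and slow-fibre genes give the setting for Myl1, Mylpf and Mybpc2 on one side and Myl2, Myl3 and Mybpc1 on the other. All 8 tested fast-fibre genes (11 listed) lay below 0 and 2 passed, where 46.6% of tested genes lay below 0 and 0.821% passed as lower. The list median was -0.75, or -0.64 without mutant array 1. Actn3, the fast-fibre alpha-actinin, fell by 1.68 (limma adjusted p = 0.0105) and Pgam2, a muscle glycolytic enzyme, fell by 0.72 (0.0103), while Casq1, the fast calcium store protein, gave -1.53 (0.0621, 0.0191 with the block, 0.0126 without control array 1). Both calls were lost without control array 2 (Actn3 0.0702, Pgam2 0.0892) and without control array 3 (Actn3 0.0701, Pgam2 0.0831), and that of Actn3 also without mutant array 2 (0.0544). Of 8 tested slow-fibre genes 6 lay below 0 and none passed; the list median was -0.36, or -0.24 without mutant array 1. Myoz2, a Z-disc protein, gave -0.43 (limma adjusted p = 0.119, 0.0166 without mutant array 1), Csrp3, the muscle LIM protein, -0.67 (0.131, 0.0383 with the block, 0.0408 without control array 1), and Casq2, the slow calcium store protein, -0.54 (0.204). With the block 5 fast-fibre and 1 slow-fibre genes passed, all lower, where 1.52% of tested genes passed as lower. The difference between the fast and slow lists was not tested, and Myh1 and Myh7 stand in the thick filament list too.

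Of 11 tested transcription factors of muscle genes (12 listed) 9 lay below 0, where 46.6% of tested genes did, and none passed. The list median was -0.20, or -0.073 without mutant array 1. Eya2, a transcriptional cofactor, gave 0.53 (limma adjusted p = 0.0548, 0.0187 without mutant array 1 and 0.0398 as the mean of its probe sets). Myf6, a bHLH factor of differentiated fibres, gave -0.83 (0.0682, 0.0388 without control array 1), and Six4, a homeobox factor, gave -0.57 (0.121).

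The tested genes outside all lists with the profile nearest to the members' median were Cacng6, a calcium channel gamma subunit, Gnai1, an inhibitory G protein subunit, Sorcs3, a sorting receptor, Cdr2, and Hjv, hemojuvelin. Likeness is the root mean square distance over the 6 arrays, which was 0.049 for Cacng6 and Gnai1, 0.052 for Sorcs3 and 0.055 for Cdr2 and Hjv. Among the members it was 0.031 for Myl4 and 0.040 for Mylpf, 0.17 for Mybpc2, 0.20 for Myl1, 0.22 for Mybph, 0.35 for Mybpc1, 0.43 for Myl2 and 0.45 for Myl3. The differences of the 5 genes were -0.24 to -0.33, and none passed (limma adjusted p = 0.117 to 0.283).

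**Figure D5:**
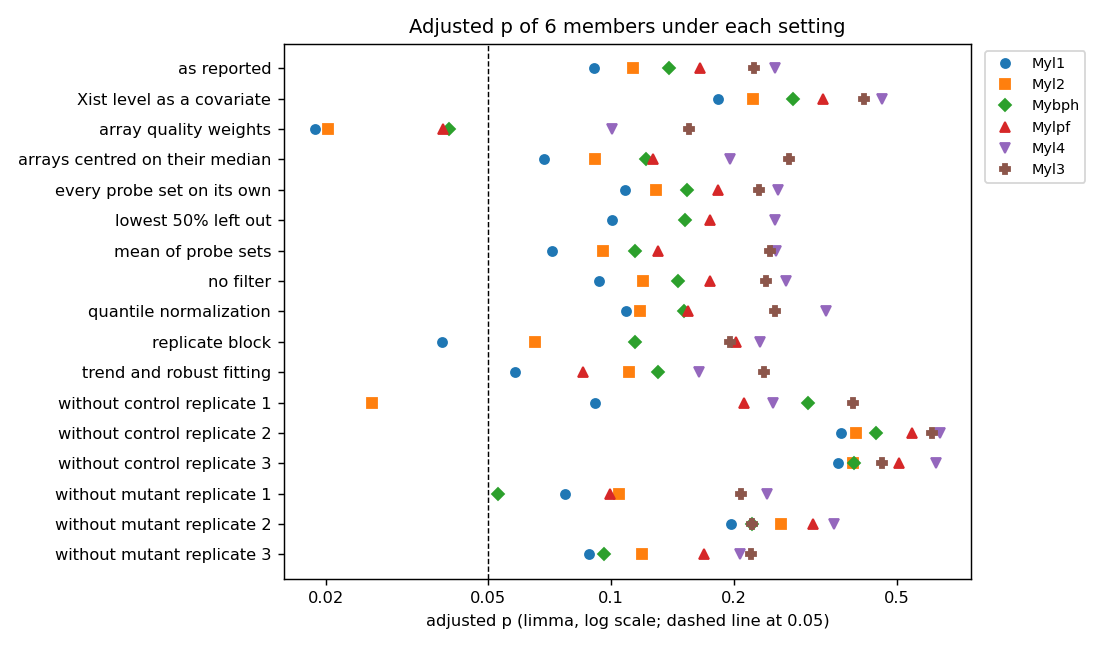
Limma adjusted p on a log axis (x axis) for the 6 members whose groups do not overlap, under the reported fit and 16 alternatives (y axis), with a dashed line at 0.05; Myl2 and Myl3 are not tested with the lowest 50% left out. Points left of the line are Myl1, Myl2, Mybph and Mylpf with array quality weights, Myl1 with the replicate block and Myl2 without control array 1.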

How the data were processed

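RNA of 6 tongue samples (3 mutant, 3 control, grouped by their titles) was read on Affymetrix arrays. The authors deposited log2 values, 1 per probe set and array, made with RMA per the submitters' processing notes; no version or annotation is given in the sources used here. Array medians lay between 5.92 and 5.98. RMA shrinks differences where signal is dim, and its normalization removes a change that most genes share. Arrays have no read depth, so their number limits the precision (median standard error 0.117). Of 45101 probe sets, 34945 have 1 gene symbol, 932 several and 9224 none here, 64 control probe sets among the last.

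Genes whose mean over 6 arrays lay in the lowest 25% were left out. The test between genotypes was 2-sided and used limma 3.58.1 (lmFit and eBayes, R 4.3.3), checked on simulated data. Members, lists and tests were chosen with earlier results of these data known. Named are the members, Tgfbr2, the 3 genes per list whose p was lowest, and the 5 genes nearest to the members' median profile; marker genes are named as examples. No label says what the title numbers stand for. Deviations of same-numbered arrays had correlations of 0.31, 0.11 and 0.21, each above 0.1. The numbers were therefore used as pairs in the block fit only, and the main fit has no block. Some unlike numbers also passed 0.1 (mutant 2 with control 3 at 0.20, mutant 3 with control 2 at 0.15), so the data alone do not settle the pairing. The block fit is given where it changes a call. Xist level as a covariate means a class, high or low, split at the middle of the range of its values. High were 2 mutant arrays and 1 control array, so this class is not balanced between the groups. Figures used matplotlib 3.10.9.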

Additional observations from a re-analysis of the deposited data

How the results depend on the processing

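Arrays give no depth, and the dimmest member, Mybpc2, lay at the edge of the tested range. The 8 members kept their direction under 18 alternatives (17 for Myl2, Myl3 and Mybpc2, which the lowest 50% left out removes), except Mybpc1 without control replicate 1 (-0.067) and without mutant replicate 3 (-0.12). Several of these alternatives cannot change the difference of a tested member, so they do not test its direction. They are the changed filters, every probe set on its own, trend and robust fitting, the replicate block, the fold limit and the threshold of 0.1. Mybpc1 relative to Mybpc2 turned to -0.049 without mutant replicate 3 (-0.049 to 0.46 with 1 array left out), and Tgfbr2 to 0.014 without mutant replicate 1 (-0.30 to 0.014). The causes were not tested. The median of the members ranged from -0.35 to -0.25, and 6 to 7 members had separate groups, or 4 with the lowest 50% left out, which removes 3 members. The count of separate groups uses the values alone, so a change of model or threshold cannot alter it. Leaving out an array can only keep or raise that count.

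Calls moved more. Array quality weights called 4 members: Myl1 (-0.55, limma adjusted p = 0.0189), Myl2 (-0.996, 0.0203), Mylpf (-0.37, 0.0387) and Mybph (-0.37, 0.0402). The replicate block, a pairing by title number, called 1 (Myl1, -0.55, 0.0386) and changed the call of no other member. A threshold of 0.1 called 1 (Myl1), and leaving out 1 array called 0 to 1 members, with Myl2 from -1.09 to -0.70, Myl1 from -0.65 to -0.46 and Mylpf, Mybph and Mybpc1 from -0.37 to -0.27, -0.58 to -0.34 and -0.12 to 0.28. Myl1 had adjusted p-values of 0.0189 to 0.365 over all alternatives.

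Over all genes 292 were called, 112 of them lower. The count was 151 (56 lower) with the lowest 50% left out, 1034 (400) with array quality weights, 490 (207) with the replicate block, 135 (58) with Xist level as a covariate, 549 (223) at a threshold of 0.1, and 16 to 670 (6 to 237) with 1 array left out: 16 (6) without control array 2, 19 (9) without control array 3, 142 (69) without control array 1, 88 (45) without mutant array 2 and 670 (237) without mutant array 1. The causes were not tested. The alternatives for list medians and for the count of members with separate groups were chosen after seeing the data.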
